A study of Oryctolagus cuniculus with 134 samples.

Results

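The genes described here are those of the kinesin motor, centromere, condensin, BUB and Aurora kinase families in a rabbit model of aortic and valvular disease. They were chosen by symbol alone (KIF followed by a digit or C, CENP followed by a letter, NCAPD, NCAPG and NCAPH, BUB1 and BUB3, AURKA and AURKB), which gave 56 of the 29587 genes listed, 14716 of which carry a symbol. RNA was sequenced from the aorta and all 4 heart valves (aortic, mitral, pulmonary, tricuspid) of 27 male New Zealand White rabbits. All animals began the protocol at 12 weeks of age and were followed for 16 weeks. The Ctrl group (7 rabbits) received chow without vitamin D2. The other groups shared vitamin D2 at 25000 U per day, scaled to body weight, for 15 days, so that no comparison with Ctrl separates a diet from vitamin D2. CHT (6 rabbits) added 0.3% cholesterol and Lard (7 rabbits) added 5% lard. IR/CHT (7 rabbits) combined the cholesterol protocol with 24 Gy of X-rays to the heart region, given after 8 weeks as 3 fractions of 8 Gy. The paper describes its cardiac irradiation as aimed at the aortic valve and thoracic aorta, and gives no dose per tissue. Tissue and position in the beam therefore cannot be told apart under IR/CHT. Each tissue and treatment holds 1 library per rabbit, except that the Ctrl mitral valve has 6.

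Mitotic kinesins are motors that use ATP to move along, slide or dismantle spindle microtubules, and they are made mostly in cells that pass through mitosis. Centromeres are built on nucleosomes that contain CENPA, on which the constitutive centromere-associated network (CCAN) and then the kinetochore assemble. Condensin I and condensin II are ring complexes that compact mitotic chromosomes, BUB proteins delay anaphase until chromosomes are attached, and Aurora kinases phosphorylate proteins of the spindle and centromere. Most cells of a healthy artery wall or valve leaflet do not divide, whereas smooth muscle cells and macrophages of atherosclerotic lesions can.

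The symbol rule is wider than mitosis. It took 10 mitotic kinesins (KIF2C, KIF4A, KIF11, KIF14, KIF15, KIF18A, KIF20A, KIF20B, KIF23 and KIFC1), KIF2A, KIF2B and KIF24, the motor CENPE, 11 centromere and CCAN genes, 3 condensin I and 3 condensin II subunits, BUB1 and BUB3, and both Aurora kinases. It also took CENPJ and CENPV, which are no core centromere subunits, and 19 transport or ciliary kinesins that move organelles, vesicles or cilium components in cells that need not divide. The mitotic label holds for most of the first groups, although KIF24 is a centriolar kinesin and BUB3 also has roles outside mitosis. It does not hold for the transport kinesins, which are described separately below. KIF2B, KIF12 and KIF19 were too low to be tested in any tissue. KIF17 was also too low in the aorta, pulmonary and tricuspid valves, and AURKB and CENPA in the pulmonary and tricuspid valves, which left 52, 53, 53, 50 and 50 genes tested in the aorta and in the aortic, the mitral, the pulmonary and the tricuspid valve.

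Levels are CPM, the read pairs of a gene scaled to the size of its library, on one library scale for all tissues, given as the lowest, median and highest library of a group. Fold changes are log2 values ± standard error from an edgeR quasi-likelihood fit of each tissue, printed in brackets where no other quantity is named, and a gene is called when its Benjamini-Hochberg adjusted p over all genes tested is under 0.05 and its fold change is over 1.5. Library totals ran from 13564979 to 50577676 read pairs with a median of 18235577. Before the scaling factors, 1 CPM corresponded to 13.6 read pairs in the smallest library and carried a counting error of 27.2%. No pair of libraries within a group held identical counts. The aorta libraries had the highest smooth muscle marker level of the 5 tissues (mean log2 CPM of 6 genes from 10.3 to 11.5 in Ctrl, and from 4.09 to 7.22 in Ctrl valves). Cardiac muscle markers were present in all Ctrl valve groups, highest in the tricuspid valve (mean log2 CPM of 7 genes from 5.41 to 11.2). Plate 2 held every aorta library, plate 1 held every CHT library from the aortic and the mitral valve, and the other valve groups were split over both plates.

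Members were called under CHT and IR/CHT in the 3 left-sided tissues, and none was called by edgeR in the right-sided valves. Of the 53 members tested in at least 1 tissue, 14 (26.4%) were called higher than Ctrl under both CHT and IR/CHT in all 3 left-sided tissues (aorta, aortic and mitral valve), where 3.59% of all 16288 genes tested in at least 1 tissue were. These were KIF4A, KIF11, KIF14, KIF15, KIF20A, KIF23, KIFC1, KIF24, CENPE, CENPK, NCAPG, NCAPH, BUB1 and AURKA. With a test against the fold threshold 4 of the 14 (KIF4A, KIF11, KIF23 and NCAPH) stayed called in all 6 comparisons. On plate 1 alone, which holds no aorta library, 8 of the 14 stayed called in the 4 valve comparisons, and on plate 2 alone, which holds no CHT library of these valves, 5 stayed called under IR/CHT in both valves. Over all tissues and treatments 32 members (60.4%) were called higher than Ctrl at least once and 11 (20.8%) lower at least once, against 30.2% and 28.4% of all genes, with KIF5A and KIF26B in both counts. The 12 members (22.6%, against 44% of all genes) called in no comparison with Ctrl were BUB3, CENPC, CENPH, CENPI, CENPJ, CENPL, KIF1B, KIF1C, KIF2A, KIF3B, KIF3C and NCAPD3.

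**Figure D1:**
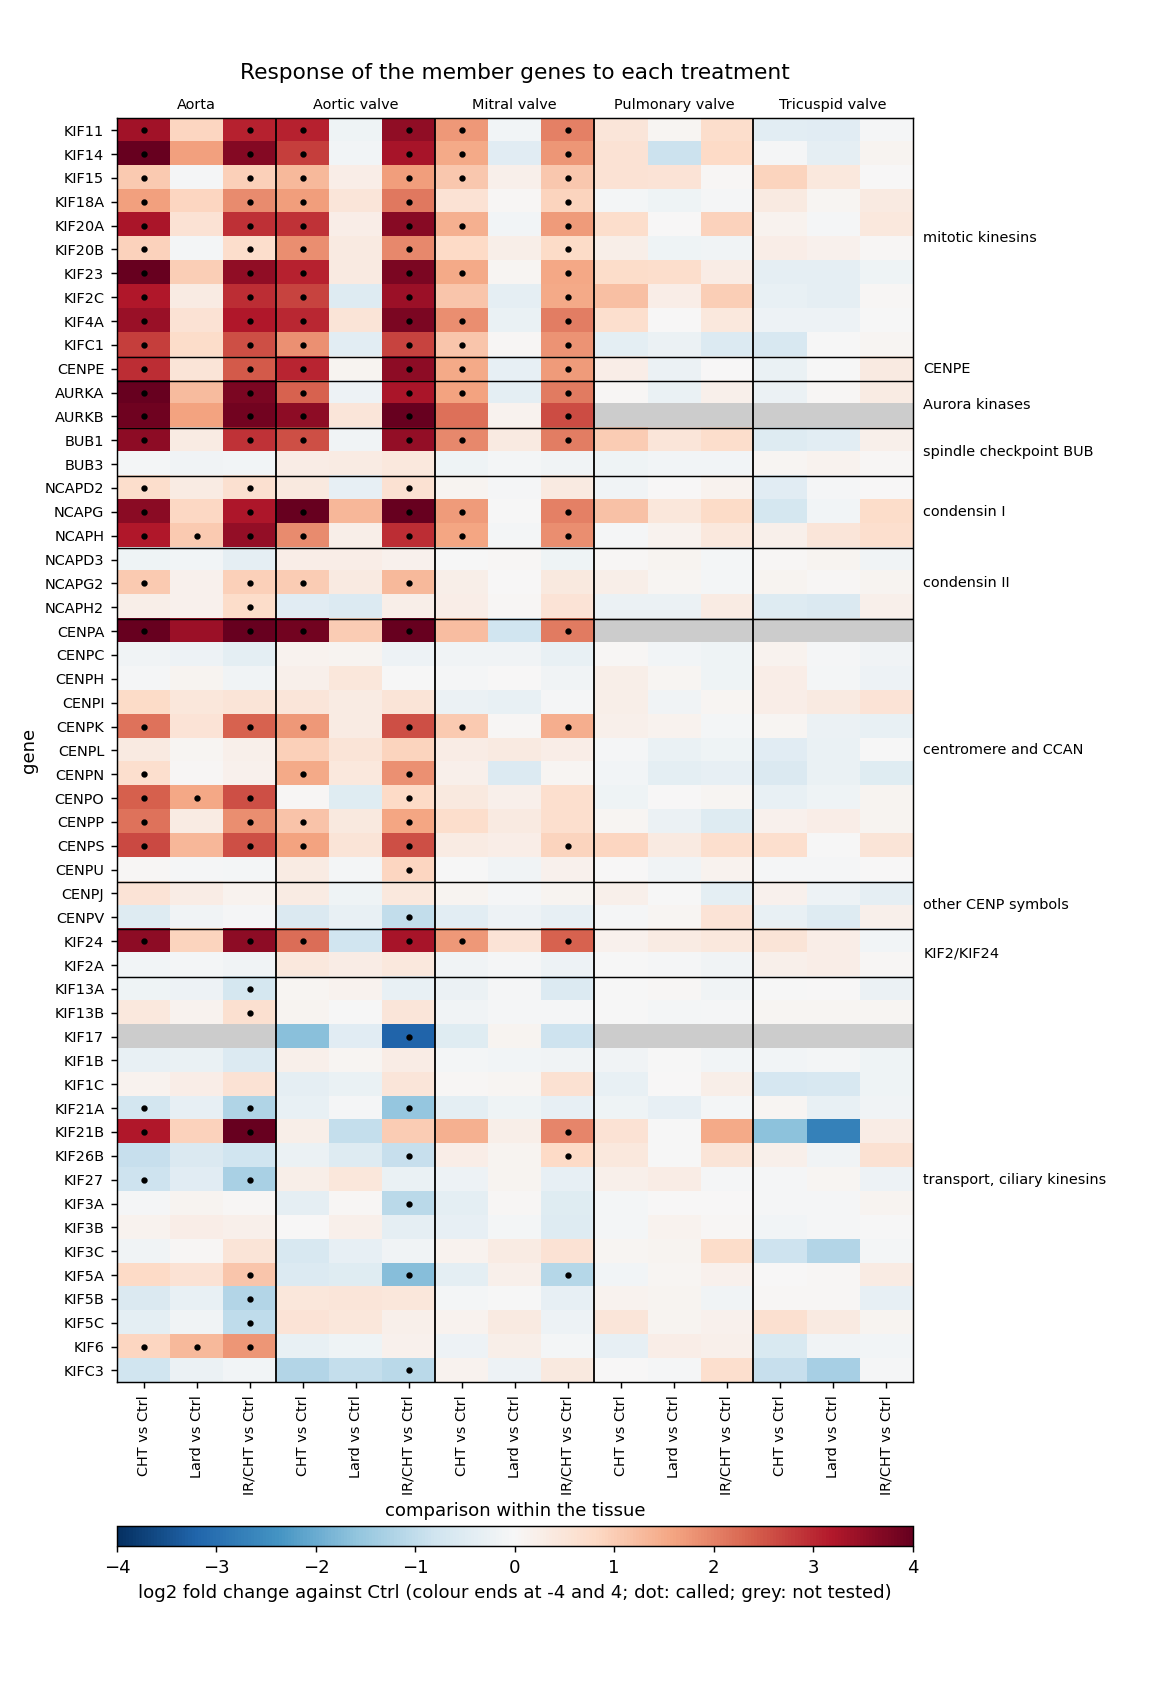
Log2 fold change against Ctrl of each tested member (rows, grouped by role) in CHT, Lard and IR/CHT of each tissue (columns), with colour from -4 to 4, a dot where the gene was called and grey where it was not tested. Dots fill the 10 mitotic kinesin rows of the aorta and aortic valve under CHT and IR/CHT, fill 7 and 10 of them in the mitral valve, and are absent from the pulmonary and tricuspid valve.

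In the aorta, CHT against Ctrl called 29 of 52 members, 27 higher and 2 lower, where 19.4% of all genes tested were called (14.2% higher and 5.18% lower). IR/CHT against Ctrl called 34 members, 29 higher and 5 lower, where 34.3% of all genes were called (22.2% higher and 12.2% lower). The median log2 fold change was 0.77 over the members under CHT and 0.72 under IR/CHT, with medians of -0.04 and 0.00 over all genes. In 19 members every CHT library lay above every Ctrl library, against 7.75% of all genes, and under IR/CHT 20 members did so, against 11.2%. In 7 members every IR/CHT library lay below every Ctrl library, against 8.3% of all genes.

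All 10 mitotic kinesins rose in the aorta under CHT and under IR/CHT, with median log2 fold changes of 3.23 and 2.93. KIF20A, which acts in cytokinesis at the central spindle, was at 0.635, 0.989 and 3.28 CPM in Ctrl, 8.09, 8.42 and 19.8 CPM in CHT and 5.83, 9.37 and 12.4 CPM in IR/CHT. Every library of both cholesterol groups lay above all Ctrl libraries, although 1 Ctrl library stood well above the other 6. The log2 fold change of KIF20A was 3.25 ± 0.41, adjusted p = 1.09e-06 under CHT and 2.91 ± 0.40, adjusted p = 1.89e-06 under IR/CHT. KIF14, another cytokinesis motor, had the steepest rise of the group, from 0.129, 0.508 and 1.13 CPM in Ctrl to 3.73, 6.06 and 16.4 CPM in CHT, a 17.4-fold change (4.12 ± 0.57, adjusted p = 3.3e-06). KIF11, the motor that pushes spindle poles apart, was at 0.323, 1.09 and 3.02 CPM in Ctrl, 7.06, 9.88 and 21.1 CPM in CHT and 4.91, 9.73 and 17.1 CPM in IR/CHT, again without overlap. KIF15, a spindle motor, and KIF20B, a cytokinesis motor, had the smallest log2 fold changes of the 10 under CHT, 1.06 and 0.92, with Ctrl medians of 6.22 and 4.95 CPM. Values of KIF24, a centriolar kinesin, went from 0, 0.191 and 1.32 CPM in Ctrl to 2.06, 3.74 and 8.03 CPM in CHT (3.59 ± 0.66, adjusted p = 0.000177).

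**Figure D2:**
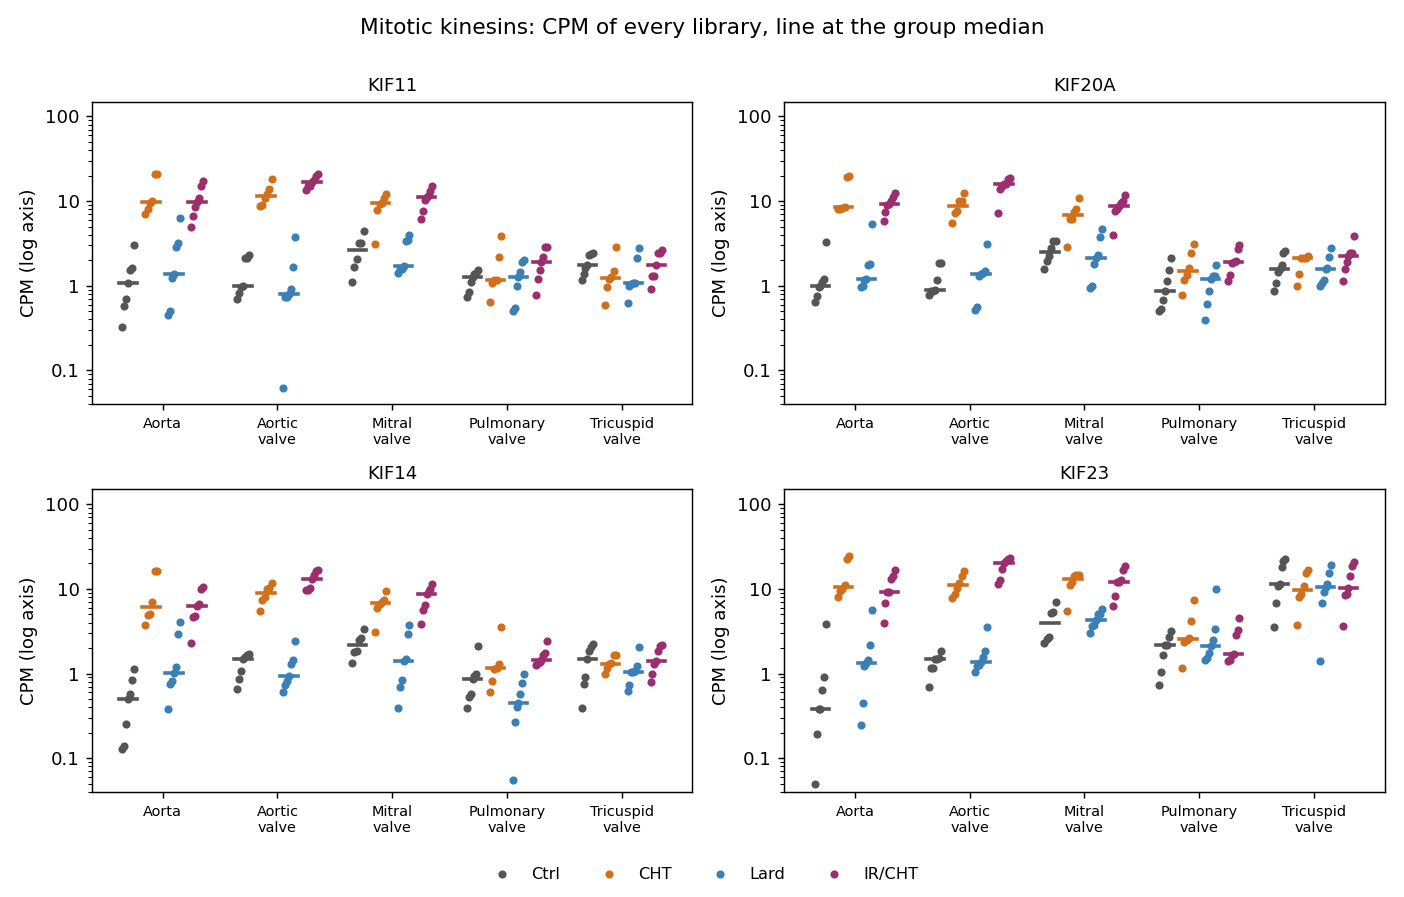
CPM of KIF11, KIF20A, KIF14 and KIF23 in every library (points) by tissue and treatment, with a line at the group median, on log axes where values under 0.05 CPM are drawn at 0.05. CHT and IR/CHT lie above Ctrl in the aorta and aortic valve, less so in the mitral valve, and overlap Ctrl in the pulmonary and tricuspid valve, where KIF23 reached a median of 11.5 CPM in tricuspid Ctrl.

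In the aorta under CHT, CENPE, both Aurora kinases and BUB1 were called higher, and BUB3 was not called. CENPE, the kinetochore motor that carries chromosomes to the spindle equator, was at 1.62, 2.06 and 3.46 CPM in Ctrl and 8.48, 10.6 and 32.4 CPM in CHT (2.95 ± 0.40, adjusted p = 3.35e-06). AURKA, a kinase of the spindle poles, was at 0.064, 0.212 and 0.635 CPM in Ctrl, 2.09, 3.14 and 8.24 CPM in CHT and 2.26, 3.15 and 5.79 CPM in IR/CHT, a 16.1-fold and a 13.6-fold change. AURKB, its relative at the centromere, was at 0, 0.0707 and 0.387 CPM in Ctrl and 1.49, 2.61 and 3.91 CPM in CHT, was called higher and did not overlap. No Ctrl library held more than 6 read pairs of it and most held fewer than the floor of 3, so no fold change is given. With so few Ctrl reads AURKB could pass the low-count filter only through other groups. Its call and its lack of overlap are therefore weak support for a rise. The Ctrl medians of AURKA, KIF24 and NCAPG in the aorta were also as low as 3 read pairs, and their fold changes depend on those few reads. BUB1, a checkpoint kinase, was at 0, 0.317 and 1.7 CPM in Ctrl and 1.33, 4.57 and 10.2 CPM in CHT, with 1 Ctrl library inside the CHT range (3.56 ± 0.64, adjusted p = 0.000132). Its partner BUB3, which also has roles outside mitosis, was at 28.1, 33.1 and 38.1 CPM in Ctrl and 26.7, 31.4 and 33.6 CPM in CHT.

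The centromere and CCAN genes of the aorta were split. Under CHT 6 of 11 were called higher (CENPA, CENPK, CENPN, CENPO, CENPP and CENPS) and 5 were not called. CENPA, the histone variant that marks centromeres, was at 0, 0 and 0.0707 CPM in Ctrl, with no Ctrl library above 1 read pair, and at 0.436, 1.43 and 3.91 CPM in CHT and 0.613, 1.94 and 3.77 CPM in IR/CHT. The Ctrl libraries lay below the floor of 3 read pairs, so no fold change is given. CENPA, like AURKB, could pass the low-count filter only through other groups, so its call is weak support for a rise. Both are counted among the members called higher and without overlap in the aorta under CHT. CENPS, a small histone-fold subunit, was at 0.258, 0.386 and 0.576 CPM in Ctrl and 0.695, 2.45 and 4.65 CPM in CHT (2.63 ± 0.39, adjusted p = 1.07e-05). CENPC and CENPU, both CCAN subunits, were not called, with Ctrl medians of 28.9 and 29.6 CPM and CHT medians of 23.4 and 34.9 CPM.

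In the aorta under CHT all 3 condensin I subunits and 1 of 3 condensin II subunits were called higher, and the difference between subunits was not tested. NCAPH, the kleisin subunit of condensin I, was at 2.6, 4.86 and 6.99 CPM in Ctrl, 26.4, 47.5 and 58.3 CPM in CHT and 27.8, 54.6 and 84.1 CPM in IR/CHT, with no overlap between Ctrl and either group. Its log2 fold change was 3.19 ± 0.29, adjusted p = 7.26e-09 under CHT and 3.52 ± 0.29, adjusted p = 5.8e-10 under IR/CHT, the smallest p of any member in both comparisons. NCAPG, a HEAT-repeat subunit of the same complex, was at 0.0635, 0.212 and 1.1 CPM in Ctrl and 2.87, 3.07 and 8.93 CPM in CHT (3.60 ± 0.60, adjusted p = 5.41e-05). The third subunit, NCAPD2, rose by 0.71 on the log2 scale, from 12.5, 15.1 and 20.2 CPM to 17.1, 20.9 and 39.3 CPM. In condensin II, NCAPG2 rose from 7.63, 12.2 and 15.1 CPM to 15.7, 20.4 and 37.1 CPM (1.05 ± 0.20, adjusted p = 0.000232), whereas NCAPH2 and NCAPD3 were not called under CHT, with log2 fold changes of 0.23 and -0.16. Under IR/CHT NCAPG2 (0.95 ± 0.19, adjusted p = 0.000218) and NCAPH2 (0.74 ± 0.25, adjusted p = 0.0163) were called higher. NCAPD3 was at 33.0, 37.6 and 40.5 CPM in Ctrl and 18.5, 30.4 and 32.9 CPM in IR/CHT, where every library lay below Ctrl, and it did not pass the fold threshold (-0.35 ± 0.11, adjusted p = 0.0121).

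**Figure D3:**
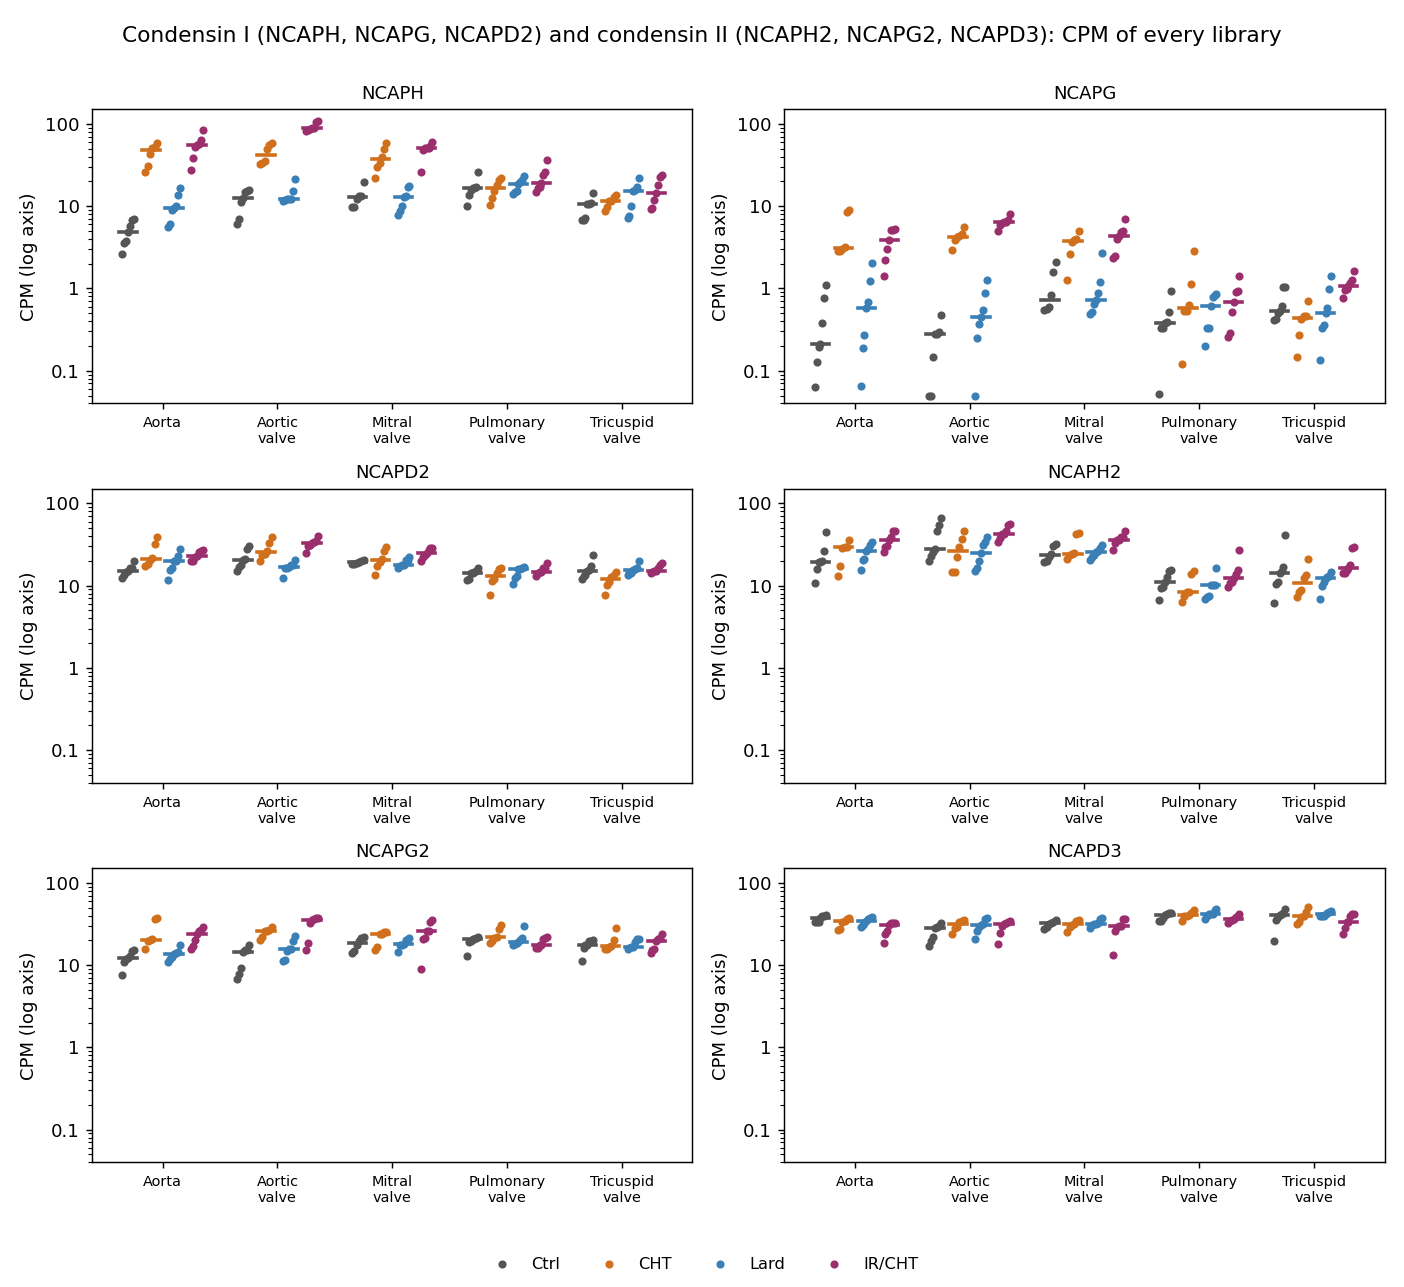
CPM of the condensin I subunits NCAPH, NCAPG and NCAPD2 and the condensin II subunits NCAPH2, NCAPG2 and NCAPD3 in every library (points) by tissue and treatment, with a line at the group median, on log axes where values under 0.05 CPM are drawn at 0.05. NCAPH and NCAPG separate CHT and IR/CHT from Ctrl in the aorta and aortic valve, while NCAPD3 in the aorta has medians of 37.6 CPM in Ctrl, 34.0 in CHT and 30.4 in IR/CHT.

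Other mitotic genes that the symbol rule did not take moved with the members. Of 36 such partners measured, 31 were called higher in the aorta under CHT and 31 under IR/CHT, with median log2 fold changes of 2.39 and 2.25. TOP2A, the topoisomerase that untangles mitotic chromosomes, was at 2.57, 3.42 and 11.3 CPM in Ctrl and 19.7, 23.7 and 56.8 CPM in CHT (2.81 ± 0.38, adjusted p = 3.12e-06). FOXM1, a transcription factor of mitotic genes, was at 0, 0.141 and 1.26 CPM in Ctrl and 2.35, 2.95 and 6.82 CPM in CHT and was called higher. No fold change is given because most Ctrl libraries held fewer than 3 read pairs. FOXM1 could pass the low-count filter only with the help of other groups, so its call is weak support for a rise. Only 3 of the 13 cell cycle transcription factors on the list were called higher and 2 were called lower. MKI67 and CDKN1A were not found by symbol.

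Markers of other cells moved in the same libraries. Of 14 macrophage markers, 12 were called higher in the aorta under CHT and 14 under IR/CHT. Their mean log2 CPM was 1.74 to 2.94 in Ctrl, 4.67 to 6.13 in CHT and 5.31 to 7.04 in IR/CHT, and CD68 went from 8.16, 10.5 and 19.1 CPM to 146, 223 and 293 CPM (4.19 ± 0.43, adjusted p = 3.79e-08). Of 6 smooth muscle markers, 3 were called lower under CHT and 5 under IR/CHT, and their mean log2 CPM was 9.36 to 10.4 in CHT and 8.97 to 10.2 in IR/CHT. Of 7 cardiac muscle markers, 1 was called lower under CHT, and 4 were called higher and 1 lower under IR/CHT. Their mean log2 CPM was 2.31 to 3.90 in Ctrl, 1.09 to 3.04 in CHT and 2.80 to 7.35 in IR/CHT, with a median of 3.55 in IR/CHT. Of 7 endothelial markers, 6 were called higher under each protocol, and of 8 fibroblast and valve interstitial markers 3 were called higher under CHT, and 4 higher and 1 lower under IR/CHT. Of 4 cell cycle inhibitors and p53 targets, 2 were called higher under each protocol and 1 was called lower under CHT. None of 5 adipocyte and none of 3 tested neutrophil markers was called under CHT (2 and 2 higher under IR/CHT), and 1 of 2 tested B cell markers was called higher under each. Of 5 T cell markers, 2 were called higher under CHT and 5 under IR/CHT. In these bulk samples fewer cells of a type and less RNA per cell cannot be told apart, and the part of these cell types in the members' levels was not tested.

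The Lard diet moved few members. In the aorta 3 of 52 were called, all higher, where 2.61% of all genes were called, and 12 had an unadjusted p under 0.05, as did 15.8% of all genes. NCAPH was at 5.6, 9.55 and 16.7 CPM in Lard, above its Ctrl median and below every CHT library (1.05 ± 0.27, adjusted p = 0.0333). KIF6, a kinesin related to ciliary motors, was at 0.9, 1.15 and 1.81 CPM in Ctrl and 1.28, 3.89 and 4.59 CPM in Lard (1.28 ± 0.31, adjusted p = 0.0208). CENPO, a CCAN subunit, was at 0.128, 0.321 and 1.14 CPM in Ctrl and 0.55, 1.19 and 2.44 CPM in Lard (1.54 ± 0.42, adjusted p = 0.0461). No member was called when Ctrl library L568, Ctrl library L569 or Lard library L562 was left out, and none when only the Ctrl and Lard libraries were fitted. Of the 10 mitotic kinesins none was called under Lard, and 8 of the 14 macrophage markers were called higher. Of 7 endothelial, 8 fibroblast and valve interstitial, 3 tested neutrophil and 5 T cell markers 1 each was called higher, and all 7 endothelial markers had an unadjusted p under 0.05. Their part in the members' levels was not tested. Lard called 0 of 53 members in the aortic valve and 0 of 53 in the mitral valve (0.234% and 0% of all genes), with 4 and 0 members at an unadjusted p under 0.05 (11% and 1.65% of all genes), and DESeq2 also called 0 in each.

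In the aortic valve CHT called 23 of 53 members, all higher, where 11.9% of all genes were called and 8.42% higher. IR/CHT called 33 members, 26 higher and 7 lower, where 42.8% of all genes were called (21.1% higher and 21.7% lower). The share of members called lower lay below that of all genes, and the share called higher lay above it. Median log2 fold changes over the members were 0.45 under CHT and 0.78 under IR/CHT, with medians of -0.02 and -0.06 over all genes. In 20 members every CHT library lay above every Ctrl library, against 4.72% of all genes, and under IR/CHT 20 did so, against 13.1%. In 3 members every IR/CHT library lay below Ctrl, against 7.7%. On plate 1 alone, which held all CHT libraries, CHT called 17 members and IR/CHT called 29. The share of all genes called in those fits is not given, so these counts have no background beside them.

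All 10 mitotic kinesins rose in the aortic valve under both protocols, with median log2 fold changes of 2.74 and 3.36. KIF23, the motor of the centralspindlin complex of cytokinesis, was at 0.701, 1.47 and 1.86 CPM in Ctrl, 7.89, 11.0 and 16.3 CPM in CHT and 11.4, 20.1 and 23.3 CPM in IR/CHT. No CHT or IR/CHT library of KIF23 overlapped Ctrl, and the log2 fold changes were 3.09 ± 0.28, adjusted p = 1.05e-08 and 3.75 ± 0.28, adjusted p = 4.19e-11. NCAPG was at 0, 0.281 and 0.473 CPM in Ctrl, 2.91, 4.27 and 5.61 CPM in CHT and 5.04, 6.41 and 8.12 CPM in IR/CHT, a 19.1-fold and a 28.4-fold change from a Ctrl group with 2 of 7 libraries at 0. CENPE was at 0.545, 1.15 and 4.41 CPM in Ctrl and 10.3, 13.8 and 18.0 CPM in CHT (3.05 ± 0.46, adjusted p = 2.65e-05). AURKA was at 0.11, 0.675 and 1.22 CPM in Ctrl, 2.07, 3.48 and 5.14 CPM in CHT and 5.24, 6.97 and 7.29 CPM in IR/CHT, with 3.26 ± 0.39, adjusted p = 1.03e-07 for IR/CHT. Under IR/CHT 7 of the 11 centromere and CCAN genes were called higher, among them CENPU, which was at 10.4, 16.5 and 18.6 CPM in Ctrl and 21.95, 28.0 and 32.1 CPM in IR/CHT (0.86 ± 0.14, adjusted p = 1.52e-05).

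Markers moved in the aortic valve as well. Of 14 macrophage markers 8 were called higher under CHT and 12 under IR/CHT, with mean log2 CPM of 2.91 to 4.15 in Ctrl, 5.33 to 5.97 in CHT and 6.85 to 7.10 in IR/CHT. All 7 cardiac muscle markers were called lower under CHT and under IR/CHT (3.69 to 9.16 in Ctrl, 0.03 to 3.85 in CHT and 0.54 to 3.82 in IR/CHT). They were lower under Lard too, where 5 of 7 were called. Of the 36 mitotic partners 26 were called higher under CHT and 33 under IR/CHT. Of 6 smooth muscle markers 1 was called higher and 1 lower under CHT, and 2 higher and 4 lower under IR/CHT. Of 5 T cell markers 2 were called higher under CHT and 4 under IR/CHT, with mean log2 CPM of -2.20 to -0.91 in Ctrl, -0.77 to 1.34 in CHT and 1.63 to 3.11 in IR/CHT. Of 3 tested adipocyte markers 1 was called higher and 1 lower under CHT, and 1 higher and 2 lower under IR/CHT. Of 3 tested B cell markers 1 was called higher under CHT, and 1 higher and 1 lower under IR/CHT. Of 4 tested neutrophil markers none was called under CHT and 2 higher under IR/CHT. Of 8 fibroblast and valve interstitial markers none was called under CHT, and 1 higher and 2 lower under IR/CHT, and none of 7 endothelial markers was called under either. The part of these markers' cells in the members' levels was not tested.

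Irradiation added to cholesterol was accompanied by differences in 9 members in the aortic valve. IR/CHT against CHT called 9 of 53, 6 higher and 3 lower, where 19.7% of all genes were called (9.9% higher and 9.85% lower), a share of members near the background. A test against the fold threshold called 1, lower in IR/CHT, and DESeq2 called 15, with no share of all genes given for these fits. NCAPH was at 5.998, 12.5 and 15.7 CPM in Ctrl, 32.7, 41.9 and 58.8 CPM in CHT and 82.8, 88.3 and 109 CPM in IR/CHT, so that the 3 groups did not overlap, and IR/CHT was 2.07-fold above CHT (1.05 ± 0.21, adjusted p = 0.000744). BUB1 was at 0.421, 0.619 and 0.857 CPM in Ctrl, 1.73, 3.81 and 4.75 CPM in CHT and 4.65, 7.12 and 9.64 CPM in IR/CHT (0.93 ± 0.29, adjusted p = 0.0218 against CHT). KIF24 was at 2.96, 4.29 and 7.39 CPM in CHT and 6.33, 8.59 and 17.9 CPM in IR/CHT (1.05 ± 0.36, adjusted p = 0.0342). CENPS, KIFC1 and KIF1C, a vesicle motor, were also called higher, by 0.99, 0.89 and 0.85. Of the 10 mitotic kinesins KIFC1 alone was called, and the median log2 difference of the 10 was 0.59.

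The 3 members called lower in IR/CHT against CHT were the transport kinesins KIF3A, KIF21A and KIF5A, by -0.71, -1.25 and -1.15 on the log2 scale, described below with the others. The macrophage markers differed between the same groups, with 10 of 14 called higher, 4 of 5 T cell markers were called higher, and 1 of 6 smooth muscle markers was called lower. Of the adipocyte and neutrophil markers 1 each was called higher, and of the fibroblast and valve interstitial markers 1 was called lower. Their part was not tested. On plate 1 alone the comparison called 4 members, 1 higher and 3 lower, with no share of all genes given. Without single CHT libraries the count ran from 4 (without L228 or L244) and 5 (without L169 or L186) to 14 (without L265).

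In the aorta IR/CHT against CHT called 0 of 52 members by edgeR, where 0.596% of all genes were called, and 12 had an unadjusted p under 0.05, as did 22.8% of all genes. DESeq2 called 1. The median log2 difference of the 10 mitotic kinesins was -0.26. Between the same groups 4 of 7 cardiac muscle markers were called higher, with a median log2 difference of 4.03 and without overlap for 2 of the 7. Of 6 smooth muscle markers 1 was called lower, and no marker of the other cell types listed was called. Their part was not tested. In the mitral valve the same comparison called 0 of 53 (0.189% of all genes), 6 had an unadjusted p under 0.05 (13.1% of all genes), and DESeq2 called 0.

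In the mitral valve CHT called 14 of 53 members, all higher, where 5.62% of all genes were called, and IR/CHT called 23, 22 higher and 1 lower, where 17.7% of all genes were called (6.65% lower). With a test against the fold threshold CHT called 4. In 11 members every IR/CHT library lay above Ctrl, against 6.16% of all genes, and in KIF3A, KIF3B and KIF5A every one lay below, against 3.56% of all genes. Of the 10 mitotic kinesins 7 were called under CHT and 10 under IR/CHT, with median log2 fold changes of 1.28 and 1.63. KIF11 was at 1.1, 2.64 and 4.43 CPM in Ctrl, 3.14, 9.38 and 11.99 CPM in CHT and 6.13, 11.3 and 15.01 CPM in IR/CHT. Its CHT group overlapped Ctrl at the low end (1.73 ± 0.35, adjusted p = 0.00153) and its IR/CHT group did not (2.01 ± 0.34, adjusted p = 8.37e-05). NCAPH was at 9.7, 12.8 and 19.9 CPM in Ctrl, 21.997, 36.9 and 58.3 CPM in CHT and 25.7, 51.1 and 59.7 CPM in IR/CHT, and was the only member whose CHT libraries all lay above Ctrl, against 3.09% of all genes (1.56 ± 0.24, adjusted p = 8.82e-05). KIF3B, which was not called, was the only member whose CHT libraries all lay below Ctrl, against 0.907% of all genes.

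BUB1 in the mitral valve was at 0.534, 0.768 and 1.46 CPM in Ctrl and 0.531, 3.64 and 5.23 CPM in CHT, with the lowest CHT library just below the lowest Ctrl library (1.92 ± 0.50, adjusted p = 0.0172). Macrophage markers were called higher in 11 of 14 under CHT and 12 of 14 under IR/CHT (mean log2 CPM 3.01 to 4.30 in Ctrl, 4.83 to 6.06 in CHT and 5.49 to 6.47 in IR/CHT), and none of 7 cardiac muscle markers was called. Of 6 smooth muscle and 4 tested T cell markers 2 each were called higher under each protocol, 1 of 3 tested B cell markers was called higher under each, and under IR/CHT 2 of 5 adipocyte markers and 1 of 8 fibroblast and valve interstitial markers were called lower. Their part was not tested. Of the 11 centromere and CCAN genes, CENPK was called higher under CHT, and CENPA, CENPK and CENPS under IR/CHT. No condensin II subunit was called. Of the 36 mitotic partners 18 and 25 were called higher. On plate 1 alone CHT called 8 members and IR/CHT 15, and on plate 2 alone IR/CHT called 10. No share of all genes is given for the fits of single plates.

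In the pulmonary and tricuspid valves no member was called in any of the 4 comparisons, with 50 tested in each. Unadjusted p under 0.05 was met in the pulmonary valve by 6 members under CHT, 1 under Lard, 8 under IR/CHT and 10 in IR/CHT against CHT, and in the tricuspid valve by 4, 4, 4 and 9. The shares of all genes at that threshold were 9.97%, 2.49%, 15.3% and 24.5% in the pulmonary valve and 7.54%, 8.16%, 8.15% and 9% in the tricuspid valve. Few genes of any kind were called there. In the same order the shares of all genes were 0.159%, 0%, 0.706% and 0.0761% in the pulmonary valve and 0.163%, 0%, 0.231% and 0% in the tricuspid valve. DESeq2 called 1 member in the pulmonary valve under IR/CHT and 1 in IR/CHT against CHT, and 1 in the tricuspid valve under IR/CHT. NCAPH in the pulmonary valve was at 10.05, 16.6 and 26.2 CPM in Ctrl, 10.2, 16.6 and 21.96 CPM in CHT and 15.1, 19.3 and 36.0 CPM in IR/CHT, which overlap. KIF11 in the tricuspid valve was at 1.18, 1.74 and 2.45 CPM in Ctrl, 0.586, 1.24 and 2.86 CPM in CHT and 0.92, 1.77 and 2.66 CPM in IR/CHT, which overlap as well. Macrophage markers were called higher under IR/CHT in 3 of 14 in the pulmonary and 2 of 13 tested in the tricuspid valve, and no other marker was called in either valve under CHT or IR/CHT. All 7 cardiac muscle markers had an unadjusted p under 0.05 in the pulmonary valve under CHT, with a median log2 fold change of -5.14 and without overlap for 4. In IR/CHT against CHT 6 of the 7 did, with a median of 4.15. Their mean log2 CPM was 1.85 to 8.09 in Ctrl, 0.45 to 2.08 in CHT and 2.13 to 6.16 in IR/CHT, and their part in the members' levels was not tested.

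The responses of the right-sided and left-sided valves were compared in fits of 2 tissues, which test the difference itself. Between the pulmonary and the aortic valve 14 of 53 members differed in the response to CHT, all lower in the pulmonary valve, where 4.39% of all genes differed (4.01% lower). NCAPH differed by -1.91 ± 0.31, adjusted p = 1.74e-05 on the log2 scale, CENPE by -2.77 ± 0.53, adjusted p = 0.000329 and KIFC1 by -2.17 ± 0.47, adjusted p = 0.00163. In the response to IR/CHT 33 members differed, 25 lower and 8 higher, where 40.2% of all genes differed (16.8% lower and 23.3% higher). Between the tricuspid and the mitral valve 4 members differed under CHT, all lower (2.23% of all genes, 2.14% lower), namely KIF11 (-2.15 ± 0.50, adjusted p = 0.00781), NCAPG, BUB1 and NCAPH, and 14 under IR/CHT, 11 lower and 3 higher (9.56% of all genes, 6.32% lower and 3.23% higher). With the rabbit as a block 6 differed under CHT, 5 lower and 1 higher (2.72% of all genes, 2.13% lower and 0.598% higher), and 16 under IR/CHT, 12 lower and 4 higher (18% of all genes, 9.5% lower and 8.54% higher).

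Between the aortic valve and the aorta 5 members differed in the response to CHT, 2 higher and 3 lower (5.3% of all genes, 1.05% higher and 4.25% lower), namely CENPO, NCAPH, KIF21B, KIF27 and KIF5B. The difference for NCAPH, valve minus aorta, was -1.35 ± 0.35, adjusted p = 0.014, and its Ctrl level there was higher (1.37 ± 0.24, adjusted p = 5.89e-06). CENPO rose in the aorta and had a log2 fold change of 0.05 in the aortic valve, a difference of -2.39 ± 0.52, adjusted p = 0.00332. The aorta and the CHT aortic valve libraries were on different plates. With plate as a covariate 2 members differed, so at most 2 of the 5 differences held. No share of all genes is given for that fit. Under IR/CHT 15 members differed, 7 higher and 8 lower (32.8% of all genes, 11.1% higher and 21.7% lower), a share no higher than the background.

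Between the mitral and the aortic valve no member differed in the response to CHT (0% of all genes), and 16 members had an unadjusted p under 0.05, as did 11.2% of all genes. The 2 valves came from the same rabbits, whose deviations correlated, and with the rabbit as a block 8 members differed, 7 lower and 1 higher in the mitral valve, where 4.98% of all genes differed (2.26% lower and 2.72% higher). Under IR/CHT 17 members differed, 14 lower and 3 higher (15.7% of all genes, 7.26% lower and 8.41% higher), and 30 with the rabbit as a block, 25 lower and 5 higher (32.9% of all genes, 16.2% lower and 16.7% higher). The mitral response of KIF23 differed from the aortic valve response by -2.17 ± 0.39, adjusted p = 0.000265, and that of NCAPG by -2.78 ± 0.68, adjusted p = 0.00423. Their Ctrl levels were higher in the mitral valve (1.66 ± 0.29, adjusted p = 0.000263 for KIF23 and 2.24 ± 0.53, adjusted p = 0.00886 for NCAPG).

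The contrast of IR/CHT with CHT was compared between tissues in the same way. It differed in 3 members between the aortic valve and the aorta (6.2% of all genes), in 2 between the mitral and the aortic valve (2.02%), in 5 between the pulmonary and the aortic valve (13.9%) and in none between the tricuspid and the mitral valve (0%, with 4 members and 5.36% of all genes at an unadjusted p under 0.05). KIF3A, the ciliary motor subunit, was among those of the first 3 pairs, with a difference of -0.89 ± 0.14, adjusted p = 5.62e-05 for the aortic valve against the aorta. These fits did not use the rabbit as a block. With the block 1675 of 16166 genes differed between the mitral and the aortic valve, a larger share than the 2.02% without it.

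Transport and ciliary kinesins, which need not follow cell division, were called in both directions in the aorta and, against Ctrl, in the lower direction alone in the aortic valve under IR/CHT. None of 17 was called in the mitral valve under CHT, where 5.62% of all genes were called. Under IR/CHT KIF21B and KIF26B were called higher there and KIF5A lower (11.1% of all genes higher and 6.65% lower). In the aorta 2 were called higher and 2 lower of 16 under CHT (14.2% and 5.18% of all genes), and 4 higher and 5 lower under IR/CHT (22.2% and 12.2% of all genes), with median log2 fold changes of -0.15 and -0.03. KIF5B, the ubiquitous conventional kinesin, was at 1019.9, 1224 and 1398 CPM in Ctrl, 606, 759.6 and 1179 CPM in CHT and 399, 483 and 659 CPM in IR/CHT. IR/CHT did not overlap Ctrl and was 2.25-fold lower (-1.17 ± 0.16, adjusted p = 1.09e-06). KIF21A, a motor that restrains microtubule growth, was at 91.7, 118 and 169.01 CPM in Ctrl, 47.1, 64.8 and 114 CPM in CHT and 34.9, 44.1 and 75.4 CPM in IR/CHT (-1.19 ± 0.19, adjusted p = 9.75e-06). KIF27, a relative of Hedgehog pathway kinesins, was at 13.4, 16.7 and 19.4 CPM in Ctrl, 5.06, 9.74 and 13.8 CPM in CHT and 3.87, 7.3 and 8.89 CPM in IR/CHT (-1.28 ± 0.19, adjusted p = 5.32e-06). KIF13A, an endosome motor, and KIF5C, a relative of KIF5B, fell under IR/CHT. The log2 fold change of KIF13A was -0.69, and KIF5C was 2.003-fold lower, at 45.8, 59.6 and 61.9 CPM in Ctrl and 13.6, 27.0 and 43.3 CPM in IR/CHT.

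KIF21B went the other way in the aorta, from 0.257, 1.34 and 5.71 CPM in Ctrl to 5.37, 17.9 and 37.8 CPM in CHT and 19.1, 30.6 and 87.5 CPM in IR/CHT. The change under IR/CHT was 18.4-fold (4.20 ± 0.69, adjusted p = 1.81e-05). KIF13B was also called higher in the aorta, under CHT, IR/CHT or both. In the aortic valve KIF21B was already at 10.6, 19.9 and 84.0 CPM in Ctrl and was not called. The difference of its CHT response between the aortic valve and the aorta was -3.03 ± 0.92, adjusted p = 0.0416. In the mitral valve it was at 3.79, 10.3 and 25.4 CPM in Ctrl and 18.6, 29.8 and 104 CPM in IR/CHT (1.94 ± 0.56, adjusted p = 0.0119). Between plates within groups KIF21B was the 1 member called, in the tricuspid valve, where 10.1% of all genes were called. CENPC and KIF13A had an adjusted p under 0.05 there without passing the fold threshold.

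In the aortic valve no transport kinesin was called under CHT (11.9% of all genes), and 6 of 17 were called lower and none higher under IR/CHT (21.7% of all genes lower, 21.1% higher). KIF3A, a subunit of the kinesin-2 motor of cilia, was at 285, 314 and 401 CPM in Ctrl, 216, 259.4 and 287 CPM in CHT and 114, 160.1 and 180.3 CPM in IR/CHT. No IR/CHT library overlapped CHT or Ctrl, and the log2 fold change was -1.07 ± 0.11, adjusted p = 2.02e-08 against Ctrl and -0.71 ± 0.12, adjusted p = 0.000106 against CHT. KIF21A was at 44.0, 52.9 and 81.4 CPM in Ctrl, 36.3, 45.1 and 58.2 CPM in CHT and 9.46, 21.5 and 29.1 CPM in IR/CHT, again without overlap between IR/CHT and CHT (-1.25 ± 0.21, adjusted p = 0.000144). KIF5A, a conventional kinesin known from neurons, was at 7.34, 9.72 and 18.5 CPM in Ctrl, 4.67, 6.19 and 15.6 CPM in CHT and 2.29, 3.62 and 5.24 CPM in IR/CHT (-1.70 ± 0.29, adjusted p = 2.65e-05 against Ctrl).

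KIF17, KIFC3 and KIF26B were called lower in the aortic valve under IR/CHT with overlapping groups. KIF17 was at 0.0489, 0.735 and 3.35 CPM in Ctrl and 0, 0 and 0.456 CPM in IR/CHT, where 4 of 7 libraries were at 0, so its fitted value is not printed. KIFC3, a motor at cell junctions, was at 16.3, 49.8 and 110.0 CPM and 13.9, 17.6 and 48.2 CPM (-1.09 ± 0.42, adjusted p = 0.033). KIF26B was at 7.05, 21.5 and 41.6 CPM and 2.09, 12.5 and 13.6 CPM (-0.93 ± 0.39, adjusted p = 0.0493). Outside the kinesins, CENPV was the only member called lower, from 5.8, 12.8 and 19.6 CPM to 4.98, 6.37 and 8.32 CPM (-0.97 ± 0.23, adjusted p = 0.00118).

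**Figure D4:**
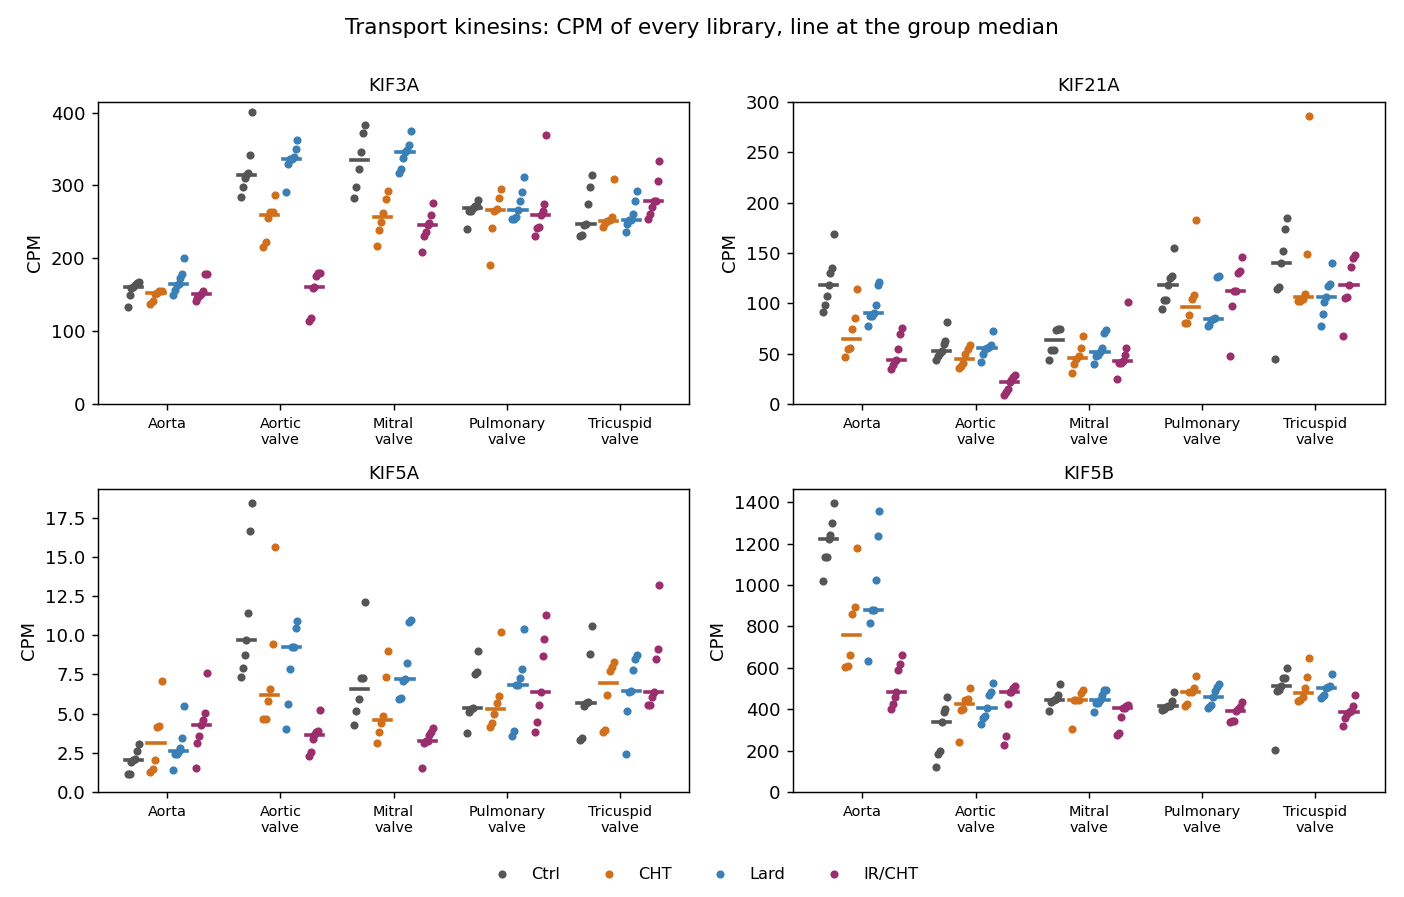
CPM of KIF3A, KIF21A, KIF5A and KIF5B in every library (points) by tissue and treatment, with a line at the group median, on linear axes from 0. KIF3A is low in aortic valve IR/CHT (median 160.1 CPM against 314 in Ctrl), and KIF5B is low in aorta IR/CHT (median 483 against 1224 CPM).

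The fall of KIF3A differed between tissues. In the aorta KIF3A was at 133, 160.02 and 166.9 CPM in Ctrl and 141, 151.5 and 178.6 CPM in IR/CHT, and its response differed from that of the aortic valve (-1.25 ± 0.13, adjusted p = 5.78e-10). In the mitral valve it was at 282, 335 and 383 CPM in Ctrl and 208, 245.9 and 276.5 CPM in IR/CHT (-0.48 ± 0.09, adjusted p = 0.000136), a 1.4-fold change that stayed under the fold threshold, and the response differed from the aortic valve by 0.64 ± 0.13, adjusted p = 0.00106. In the pulmonary valve it was at 239.8, 269.7 and 281 CPM in Ctrl and 230.9, 259.3 and 369 CPM in IR/CHT, and the difference from the aortic valve was 1.15 ± 0.14, adjusted p = 4.15e-09. Its kinesin-2 partner KIF3B was not called against Ctrl in any tissue, with an aortic valve log2 fold change of -0.37 under IR/CHT.

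KIF5A had opposite calls in the aorta and the left-sided valves under IR/CHT. It was at 1.14, 2.02 and 3.05 CPM in Ctrl and 1.55, 4.25 and 7.6 CPM in IR/CHT in the aorta (1.12 ± 0.37, adjusted p = 0.0132). In the mitral valve it was at 4.3, 6.59 and 12.1 CPM and 1.55, 3.27 and 4.09 CPM without overlap (-1.14 ± 0.27, adjusted p = 0.00224). The difference of the responses between the aortic valve and the aorta was -2.97 ± 0.48, adjusted p = 6.01e-06. KIF26B was called higher in the mitral valve, from 6.92, 11.0 and 18.8 CPM to 14.5, 21.5 and 26.9 CPM (0.80 ± 0.27, adjusted p = 0.0281), and lower in the aortic valve, and the responses differed by 1.79 ± 0.49, adjusted p = 0.00901.

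The share of members that differed between tissues without treatment was below that of all genes in 3 of the 4 pairs compared and above it between the mitral and the aortic valve. Within Ctrl 24 of 53 members were called between the aortic valve and the aorta, 17 higher and 7 lower in the valve, where 49.8% of all genes were called (32% higher and 17.7% lower). KIF5B was lower in the valve (-1.94 ± 0.21, adjusted p = 8.3e-11), with medians of 339 against 1224 CPM. CENPO was higher (2.73 ± 0.37, adjusted p = 3.43e-08), as were KIF3A (1.14 ± 0.09, adjusted p = 1.61e-14) and KIF21B (4.08 ± 0.70, adjusted p = 2.94e-06). Between the pulmonary and the aortic valve 22 members were called, 12 higher and 10 lower in the pulmonary valve (49% of all genes, 20% higher and 29.1% lower). KIF21B was lower in the pulmonary valve (-4.27 ± 0.60, adjusted p = 2.7e-07), as was KIFC3 (-3.06 ± 0.41, adjusted p = 1.76e-07).

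Between the mitral and the aortic valve 9 members were called within Ctrl, 8 higher and 1 lower in the mitral valve (6.17% of all genes, 2.62% higher and 3.56% lower), and with the rabbit as a block 18 were called, 15 higher and 3 lower (19.7% of all genes, 8.04% higher and 11.7% lower). Between the tricuspid and the mitral valve 3 were called, 2 higher and 1 lower (6.66% of all genes, 4.73% higher and 1.93% lower), and with the block 13 were called, 2 higher and 11 lower (28.5% of all genes, 8.61% higher and 19.9% lower). KIF23 was the member with the smallest p in both. It was at 0.701, 1.47 and 1.86 CPM in the aortic valve, 2.32, 3.92 and 6.98 CPM in the mitral valve and 3.54, 11.5 and 22.7 CPM in the tricuspid valve, and the tricuspid level exceeded the mitral by 1.69 ± 0.40, adjusted p = 0.00417. In the aorta KIF23 was at 0, 0.386 and 3.91 CPM and in the pulmonary valve at 0.74, 2.16 and 3.21 CPM. The cardiac muscle markers had medians of 5.43, 5.78 and 9.20 log2 CPM in Ctrl of the aortic, mitral and tricuspid valve, and their part in the level of KIF23 was not tested. For comparison, KIF11 was at a median of 2.64 CPM in mitral and 1.74 CPM in tricuspid Ctrl.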

How the data were processed

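RNA from 5 tissues of 27 rabbits was measured by stranded total RNA sequencing. Per the labels and methods, the authors prepared total RNA with a low-input kit that removes ribosomal sequences after conversion to cDNA, sequenced it in pairs (bcl2fastq 2.20) and counted read pairs per Ensembl gene against OryCun2.0 with a community RNA-seq pipeline, and they deposited raw counts, 1 column per library. The counts are not normalized and were used as deposited. Totals ranged from 13564979 to 50577676 read pairs. Before TMM scaling this sets the counting error at 27.2% for 1 CPM and 8.59% for 10 CPM in the smallest library. PCR copies are not independent molecules, so this covers counting only. No columns of other samples were used.

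Samples were grouped by tissue and treatment from the labels. For each tissue, genes were filtered with filterByExpr, scaled by TMM and tested with the robust quasi-likelihood F test of edgeR 4.0.16 (R 4.3.3), and p-values were adjusted by Benjamini-Hochberg over all genes tested. A call needed an adjusted p under 0.05 and a fold change over 1.5. Standard errors are the absolute log2 fold change divided by the square root of F. Differences of responses between tissues came from fits of 2 tissues, called at an adjusted p under 0.05, and Ctrl levels between tissues at the same p with a fold change over 1.5. CPM were scaled by TMM over all libraries, and list means used log2 CPM with a prior count of 2. The scripts were tested on simulated data. Members, gene lists and tests were chosen with earlier results of these data known.

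Genes named with values are, in each role, the member of smallest p under CHT in the aorta and its aortic valve counterpart, members called under Lard, in IR/CHT against CHT, between tissues (up to 6 of smallest p) or lower, and TOP2A, FOXM1 and CD68. Further members (KIF14, KIF11, BUB3, CENPC, CENPU, NCAPD2, KIF3B and others) were added for contrast after their values were seen. Other lists were mitotic partners, cell cycle transcription factors, cell cycle inhibitors, and markers of macrophages, T cells, B cells, neutrophils, endothelium, smooth muscle, fibroblasts, cardiac muscle and adipocytes.

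Tissues of 1 rabbit are paired by the rabbit number in the column headers. Deviations from group means correlated more within than between rabbits (median r 0.20 against 0.00 for aortic valve and aorta, 0.44 against -0.01 for mitral and aortic valve, 0.17 against -0.01 for pulmonary and aortic valve, and 0.28 against 0.01 for tricuspid and mitral valve), so fits with the rabbit as a block were added. Alternatives were DESeq2 1.42.0, its size factors in edgeR, no filter, only the 2 groups compared, 1 fit of all tissues, a test against the fold threshold, plate as a covariate or 1 plate at a time, and omission of each library in turn. Tables of promoter sequence were not used here.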

Additional observations from a re-analysis of the deposited data

Results flagged for a closer look

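In 13 (8.5%) of the groups of 6 or 7 libraries whose levels are given, 1 library stood apart from the rest of its group by Dixon's criterion. For independent normal values chance alone meets it in about 1 in 20. The groups here are CPM of genes that share libraries and were partly chosen by result, so that rate is no reference for the 8.5%. In the aorta these were KIF20A in Ctrl at 3.28 CPM (nearest other 1.22), BUB1 in Ctrl at 1.70 CPM (0.386), CENPO in Ctrl at 1.14 CPM (0.441) and CENPS in IR/CHT at 3.91 CPM (2.31). In the aortic valve they were CENPE in Ctrl at 4.41 CPM (2.13), KIF24 in IR/CHT at 17.9 CPM (10.3) and KIF26B in IR/CHT at 2.09 CPM (10.9). In the mitral valve they were KIF23 in CHT at 5.45 CPM (11.3), NCAPH in Ctrl at 19.9 CPM (13.4), NCAPH in IR/CHT at 25.7 CPM (48.1) and KIF5A in IR/CHT at 1.55 CPM (3.10). In the pulmonary valve they were KIF3A in Ctrl at 239.8 CPM (264.5) and KIF3A in IR/CHT at 369 CPM (274.8).

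The response to CHT differed between tissues, in the fit of each pair of tissues, for 5 of 53 members between the aortic valve and the aorta (5.3% of all genes), where the log2 difference was -2.39 for CENPO, -1.35 for NCAPH and 0.98 for KIF27. It differed for 14 members between the pulmonary and the aortic valve (4.39% of all genes), with -1.91 for NCAPH, -2.77 for CENPE and -2.17 for KIFC1. Between the tricuspid and the mitral valve it differed for 4 members (2.23% of all genes), with -2.15 for KIF11, -2.37 for NCAPG and -2.42 for BUB1.

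The response to IR/CHT against Ctrl differed for 15 of 53 members between the aortic valve and the aorta (32.8% of all genes, a share no lower than that of the members), with -1.25 for KIF3A, -2.97 for KIF5A and 1.51 for KIF5B. It differed for 17 members between the mitral and the aortic valve (15.7% of all genes), with -2.17 for KIF23, 0.64 for KIF3A and -1.65 for CENPS. Between the pulmonary and the aortic valve it differed for 33 members (40.2% of all genes), with -2.47 for NCAPH, 1.15 for KIF3A and -3.18 for KIFC1. Between the tricuspid and the mitral valve it differed for 14 members (9.56% of all genes), with 0.55 for KIF3A, -1.80 for CENPK and -2.07 for KIF11.

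For the difference between IR/CHT and CHT the counts were small. For the aortic valve against the aorta 3 of 53 members differed (6.2% of all genes), with -0.89 for KIF3A, -0.53 for KIF3B and -1.57 for KIF5A. For the mitral against the aortic valve there were 2 (2.02% of all genes), with 0.68 for KIF3A and 1.38 for KIF21A. For the pulmonary against the aortic valve there were 5 (13.9% of all genes), among them KIF3A at 0.85, KIF21A at 1.37 and KIF3B at 0.56.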

How the results depend on the processing

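No member called in a comparison changed direction there under any alternative in which it was tested. The direction of members not called, and of other genes named, was not compared. The counts of members called under CHT and IR/CHT in the aorta and aortic valve stayed within 1.5 times the reported value. The causes of the changes below were not tested. Apart from the rabbit block, counts from alternatives are of members alone. The share of all genes is not given for them, so they have no background here. With DESeq2 the count was 6 for Lard in the aorta (reported 3), 1 for IR/CHT against CHT in the aorta (0), 15 for it in the aortic valve (9), and 1 each for IR/CHT in the pulmonary and tricuspid valve and for IR/CHT against CHT in the pulmonary valve (0). With 1 fit of all tissues Lard in the aorta gave 6 and IR/CHT against CHT there 2. Lard in the aorta gave 0 with only the 2 groups compared and 0 with a test against the fold threshold, which also gave 1 for IR/CHT against CHT in the aortic valve and 4 for CHT in the mitral valve (14). With no filter IR/CHT against CHT in the aortic valve gave 5. On plate 1 alone that comparison gave 4, CHT in the mitral valve 8, IR/CHT in the mitral valve 15 and IR/CHT in the tricuspid valve 1, and on plate 2 alone IR/CHT in the mitral valve gave 10 (23).

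For single genes called, significance was lost in 10.1% of results with no filter (34 of 338), in 31% with the test against the fold threshold, in 29.4% on plate 1 alone (30 of 102), in 37.5% on plate 2 alone (21 of 56), in 6.25% with plate as a covariate, in 0.595% to 4.88% under each of the other alternatives in the fit, the size factors or the groups fitted, and in 3.49% when single libraries were left out. Of the 14 members called higher in all 6 left-sided comparisons, 4 stayed so with the test against the fold threshold, 12 to 14 under the other alternatives except single plates, and 11 to 14 when single libraries were left out.

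Leaving out each library in turn gave 26 to 32 members for CHT in the aorta, 33 to 36 for IR/CHT, 0 to 5 for Lard and 0 to 3 for IR/CHT against CHT, with 5 for Lard without Lard library L576 and 3 without IR/CHT library L579. It gave 22 to 24, 30 to 34, 0 and 4 to 14 in the aortic valve, and 11 to 16, 21 to 28, 0 and 0 in the mitral valve. For Lard in the aorta 1 member was called without Ctrl library L551 or L571 or Lard library L575 or L578. IR/CHT against CHT in the aorta gave 1 without CHT library L559 or L572 or Lard library L578.

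No paired analysis was possible within a tissue because the treatments were given to different rabbits. With the rabbit as a block, differences of response between the mitral and the aortic valve numbered 8 under CHT (0 without it) and 30 under IR/CHT (17), and Ctrl levels differed in 18 members (9), and in 13 (3) between the tricuspid and the mitral valve. Other counts with the block stayed within 1.5 times. With no filter the aortic valve against the aorta gave 2 under CHT (5) and 1 for IR/CHT against CHT (3), the pulmonary against the aortic valve 3 for IR/CHT against CHT (5), and Ctrl levels of mitral against aortic valve 3. With plate as a covariate the aortic valve against the aorta gave 2 under CHT, the tricuspid against the mitral valve 7 (4), and Ctrl levels of mitral against aortic valve 5. With DESeq2 size factors the aortic valve against the aorta gave 1 for IR/CHT against CHT and the tricuspid against the mitral valve 8 under CHT. Promoter motif searches were not run. Depth limits low genes such as CENPA and AURKB, which had at most 1 and 6 read pairs in any Ctrl library of the aorta.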
